A study of Homo sapiens with 24 samples.

Results

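The genes described here are 10 inflammatory mediators that epithelial cells can make, taken by symbol from the 37411 genes of the deposited count table. They are the CXC chemokines CXCL8, CXCL1, CXCL2 and CXCL3, the CC chemokine CCL20, the cytokines IL6, LIF, IL1A and IL1B, and the enzyme PTGS2. All 10 were found in the table. The count filter kept 9 of them for testing, and CXCL3, with 0 to 10 counts in a library, was not tested. On GRCh38 the CXC chemokines sit together on chromosome 4, with CXCL8 at chr4:73740506-73743716 (+), CXCL1 at chr4:73869393-73871242 (+), CXCL3 at chr4:74036589-74038807 (-) and CXCL2 at chr4:74097035-74099293 (-). IL1A at chr2:112773915-112784590 (-) and IL1B at chr2:112829751-112836903 (-) are neighbours on chromosome 2, which also holds CCL20 at chr2:227805739-227817564 (+). PTGS2 lies at chr1:186671791-186680427 (-), IL6 at chr7:22725884-22732002 (+) and LIF at chr22:30240447-30246851 (-).

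The libraries came from PC9, an established line of human lung adenocarcinoma cells. Dishes were rinsed and given medium with or without asparagine 24 or 6 h before harvest. Each medium carried either 0.004% DMSO as vehicle or 200 nM ISRIB, a small molecule that keeps the translation factor eIF2B active and thereby blunts the integrated stress response. This gave 8 groups of 3 biological replicates: with asparagine and vehicle, with asparagine and ISRIB, without asparagine and vehicle, and without asparagine and ISRIB, each at 6 and at 24 h. Every dish had its medium changed, so the 24 libraries hold no unfed control, and the labels do not say what a replicate number marks.

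Chemokines of the CXC group with the ELR motif (CXCL8, CXCL1, CXCL2 and CXCL3) attract neutrophils through the receptors CXCR1 and CXCR2, and CCL20 attracts CCR6-bearing lymphocytes and dendritic cells. IL6 and LIF signal through receptor complexes that share gp130 and lead to STAT3, IL1A and IL1B share the receptor IL1R1, and PTGS2, also called COX-2, makes the precursor of prostaglandin E2. Their transcription is classically driven by NF-κB and AP-1, and their mRNAs are short-lived because AU-rich elements in the 3′ UTR recruit decay proteins such as ZFP36.

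Libraries held 16737384 to 27495861 counts. ASNS, the asparagine synthetase gene that the integrated stress response induces, averaged 29 ± 2.11 CPM (counts scaled to the library total; SD, n = 3) with asparagine and vehicle at 6 h, against 166 ± 13.6 without asparagine, and with ISRIB 27.4 ± 2.51 against 26.7 ± 3.34. Epithelial markers were high in every library (EPCAM 413 to 599 CPM), as the label of the line implies. The 5 leukocyte markers summed to 2.83 to 6.90 CPM per library, with PTPRC at most at 0.398 CPM. The 4 fibroblast markers summed to 3.74 to 13.2 CPM, nearly all COL1A1, with DCN at 0 in 18 libraries and COL1A2 in 13. The 3 endothelial markers moved with time, summing to 24.5 to 57.6 CPM at 6 h and 3.96 to 11.5 CPM at 24 h, mostly CDH5, while VWF lay between 0 and 0.374 CPM, and their part in the results was not tested. Libraries also differed in how counts followed the GC content of genes (slope of log2 CPM for 10 percentage points of GC, -0.37 to 0.21). The most negative slopes belonged to replicate 3 with asparagine and ISRIB at 24 h (-0.37), replicate 3 without asparagine and with ISRIB at 6 h (-0.36) and replicate 1 with asparagine and ISRIB at 6 h (-0.19).

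**Figure D1:**
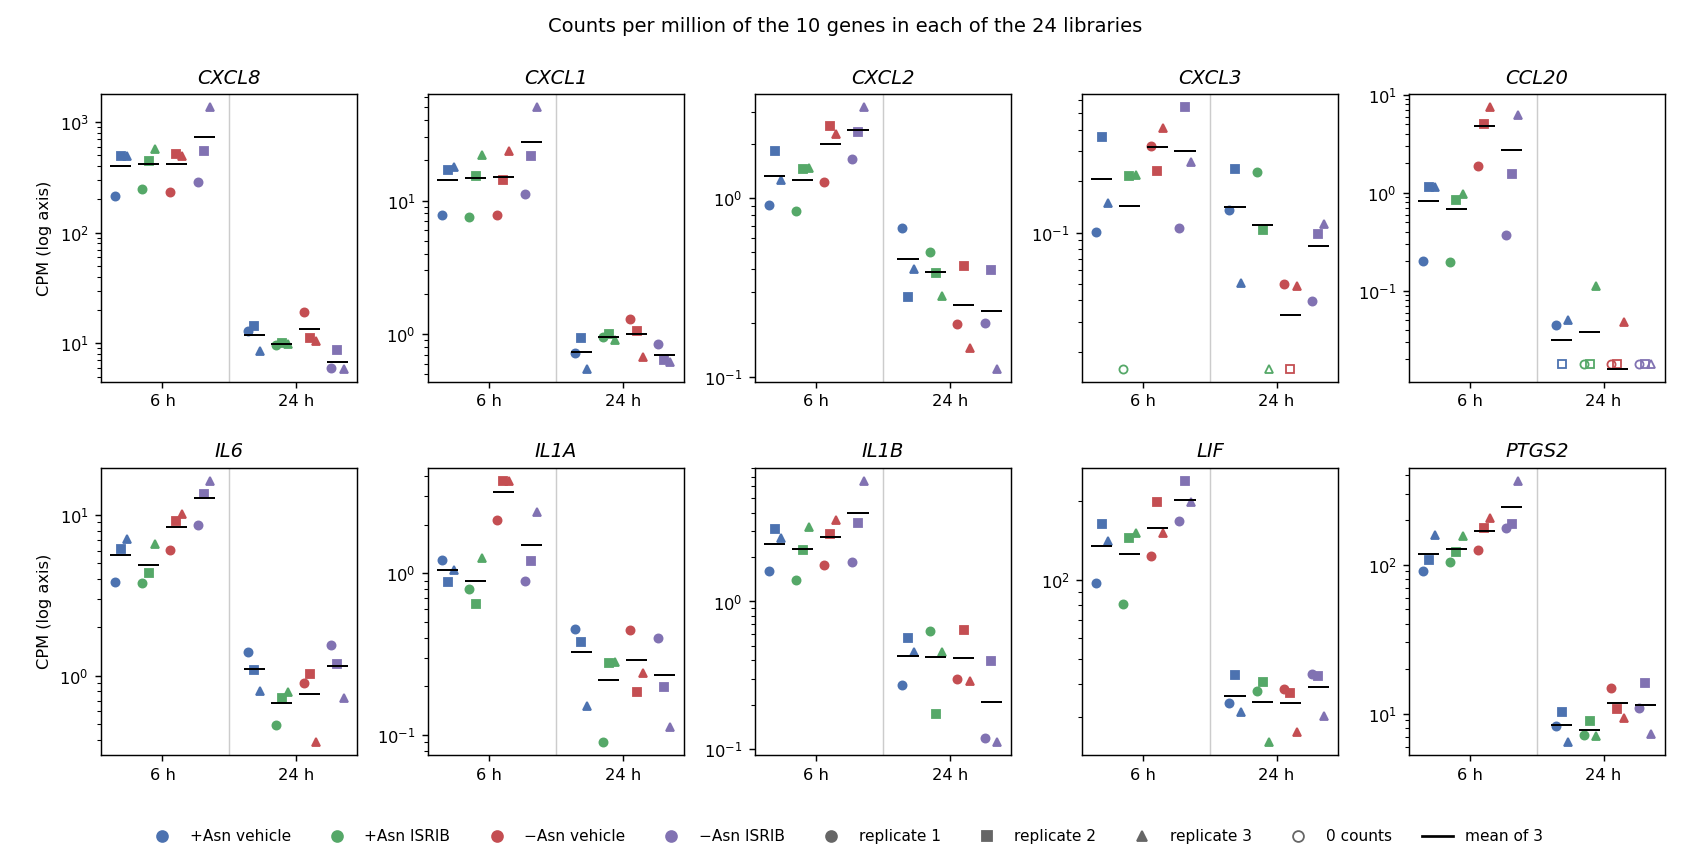
CPM of each of the 10 genes (vertical axis, logarithmic) in every library, with the 4 combinations of medium and drug at 6 h on the left of each panel and at 24 h on the right; symbols mark the replicate number, bars the mean of 3 libraries, and open symbols libraries with 0 counts. For CXCL8 the 12 libraries at 6 h lie between 217 and 1360 CPM and the 12 at 24 h between 5.91 and 19.0 CPM.

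At 6 h the neutrophil chemokine CXCL8 was the most abundant of the 10 per unit of gene length. Its level was 217 ± 133 CPM per kb of exon (mean ± SD over 12 libraries of all 4 conditions), followed by LIF at 38.9 ± 11, PTGS2 at 31.2 ± 13.9 and CXCL1 at 13.8 ± 8.85 CPM per kb. IL6 stood at 3.84 ± 1.86, CCL20 at 1.41 ± 1.57, CXCL2 at 1.16 ± 0.469, IL1B at 0.921 ± 0.446, IL1A at 0.781 ± 0.515 and CXCL3 at 0.109 ± 0.0673 CPM per kb. LIF and PTGS2 were within 1 SD of each other, as were the neighbours CCL20, CXCL2, IL1B and IL1A. At 24 h the order changed at the top: LIF stood at 9.03 ± 1.68 and CXCL8 at 4.63 ± 1.59 CPM per kb, PTGS2 at 1.86 ± 0.579, CXCL1 at 0.656 ± 0.168 and IL6 at 0.446 ± 0.167. CXCL2, IL1A and IL1B lay at 0.222 to 0.119 CPM per kb, and CXCL3 (0.0413) and CCL20 (0.0134) were last. The 10 genes together took 420 to 2010 CPM of a library at 6 h, median 810, and 43.8 to 75.3 CPM at 24 h, median 60.6. These are shares of all RNA in a dish, so fewer cells making a transcript and less of it per cell cannot be told apart.

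The largest differences among the 10 genes were those between the 2 times. Each mean was lower at 24 h than at 6 h in all 4 combinations of medium and drug. Log2 changes below come from edgeR's quasi-likelihood test, are given with their standard error (SE), and were called at an adjusted p (Benjamini-Hochberg, over the 17409 genes tested) below 0.05. With asparagine and vehicle 9 of the 9 tested genes fell, where 18.8% of all genes tested were called and 9.47% were called lower. With asparagine and ISRIB 8 of 9 fell, against 17.4% of genes called and 8.62% called lower. Without asparagine 9 of 9 fell with vehicle (25.4% called, 13.2% lower) and 9 of 9 with ISRIB (32.3% called, 17.8% lower). Since 3 of the 9, CXCL2, CCL20 and IL1A, passed the count filter on the strength of the 6 h libraries alone, these counts describe the genes and are not evidence of a shared decline. The other 6 passed it in the 24 h libraries by themselves.

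CXCL8 showed the steepest decline among the well-counted genes. With asparagine and vehicle its 6 h libraries read 217, 491 and 498 CPM and its 24 h libraries 13, 14.2 and 8.45 CPM. With ISRIB in the same medium they read 247, 443 and 568 CPM against 9.67, 10.1 and 9.86 CPM. The lowest 6 h library was thus more than 10 times the highest 24 h library of these groups. Without asparagine the values were 233, 517 and 494 CPM against 19.0, 11.1 and 10.5 CPM with vehicle. With ISRIB they were 289, 551 and 1360 CPM against 5.99, 8.63 and 5.91 CPM, and 1 library, replicate 3 at 6 h, stood far above the other 11 of its time. The log2 change of CXCL8 was -5.08 ± 0.51 with asparagine and vehicle (33.7-fold lower, adjusted p = 1.3e-06) and -5.41 ± 0.52 with asparagine and ISRIB (42.4-fold lower, adjusted p = 8.3e-07). In both comparisons it ranked first from the bottom among the 17409 log2 changes. Without asparagine its log2 change was -4.94 ± 0.51 with vehicle and -6.74 ± 0.56 with ISRIB, or -5.94 ± 0.44 when the library at 1360 CPM was left out.

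The other CXC chemokines were far lower but moved the same way. CXCL1 had 7.77, 17 and 17.7 CPM with asparagine and vehicle at 6 h, and every one of the 12 libraries at 24 h held between 0.553 and 1.29 CPM. Its log2 changes were -4.24 ± 0.58, -3.94 ± 0.56, -3.9 ± 0.56 and -5.26 ± 0.59, all called, in the order with asparagine and vehicle, with asparagine and ISRIB, without asparagine and vehicle, and without asparagine and ISRIB. CXCL2, at 0.847 to 3.18 CPM at 6 h and 0.112 to 0.678 CPM at 24 h, changed by -1.52 ± 0.42, -1.67 ± 0.42, -2.95 ± 0.44 and -3.28 ± 0.44 in that order. In the first of these comparisons the call of CXCL2 was lost without replicate 2 at 6 h (-1.23, adjusted p = 0.090), replicate 2 at 24 h (-1.27, 0.066) or replicate 3 at 24 h (-1.44, 0.054). CXCL3 counts summed over 3 libraries went from 12 to 9, 9 to 8, 19 to 2 and 16 to 5. After scaling these gave ratios of 6 h to 24 h of 1.43 (95% counting interval 0.552 to 3.84), 1.25 (0.427 to 3.72), 9.87 (2.38 to 87.3) and 3.84 (1.34 to 13.4). Intervals of this kind cover counting error alone. CXCL1, CXCL2 and CXCL3 are close paralogs, and 5.73%, 9.24% and 5.26% of the 50-base stretches of their longest coding transcripts occur in one of the other two, so a small part of their reads could have been shared.

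The promoters of these chemokines carry the textbook NF-κB motif, and the stretches are printed to show how alike the sites are among the 4 CXC genes. RefSeq (GRCh38.p14) gave a window of 250 bases before the start site for 9 of the 10 genes, and LIF had no entry. The motif GGNNTTTCC, on either strand, was found in 6 of the 9, namely CXCL8, CXCL1, CXCL2, CXCL3, CCL20 and IL6, and in 5.48% of all 35116 windows. Capitals mark the motif and lower case the 10 bases on either side, on the strand of the gene.
CXCL8, chr4:73740468-73740496 (+): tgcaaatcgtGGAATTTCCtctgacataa
CXCL1, chr4:73869305-73869333 (+): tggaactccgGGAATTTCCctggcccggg
CXCL2, chr4:74099254-74099282 (-): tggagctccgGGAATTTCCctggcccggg
CXCL3, chr4:74038749-74038777 (-): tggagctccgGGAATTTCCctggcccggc
CCL20, chr2:227813753-227813781 (+): tgatcaatggGGAAAACCCcatgtggcaa
IL6, chr7:22727118-22727146 (+): atcaaatgtgGGATTTTCCcatgagtctc
All 6 sites lie between 91 and 64 bases before the RefSeq start. The GENCODE 29 spans given above reach further upstream for CXCL2, CXCL3, CCL20 and IL6 and take in the site, while those of CXCL8 and CXCL1 begin after it. CXCL8, CXCL1, CXCL2 and CXCL3 share the same 9 letters GGAATTTCC, and CXCL1, CXCL2 and CXCL3 hold a further match, GGGCTTTCC, from 53 to 45 bases before the start. The AP-1 motif TGANTCA was found in the windows of CXCL8 and IL1A and in 6.57% of all windows. The windows of PTGS2 and IL1B held neither motif, and that of IL1A held no match to the NF-κB letters. Sites further upstream or with other letters were not searched, and the part of NF-κB in the fall with time was not tested. TGACGTCA (1.65% of windows) and the ATF4-type composite TGATGNAAT (0.888%) were in 0 of the 9. These are matches of letters in short windows, not measured binding.

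CCL20, the ligand of CCR6, was almost lost at 24 h. At 6 h its 12 libraries held 4 to 146 counts, or 0.199 to 7.45 CPM, and at 24 h 8 of 12 libraries held 0 counts and the highest held 2. With asparagine and vehicle the 6 h libraries summed to 49 counts and the 24 h libraries to 2, a ratio of 26.3 (95% counting interval 6.89 to 223) with an adjusted p of 0.049. With asparagine and ISRIB the sums were 42 and 2, a ratio of 23.3 (6.06 to 199), with an adjusted p of 0.070. Without asparagine the sums were 290 and 1 with vehicle, a ratio of 301 (53.6 to 11900). With ISRIB they were 132 and 0, a ratio of 52.8 against a floor of 3 counts over the group. The counting interval of that last ratio had a lower limit of 42.3 and no upper limit. The call with asparagine and vehicle was lost under RLE scaling (adjusted p = 0.050), with limma on the deposited log2 values (0.054) and in 5 of 6 fits that left out a library (adjusted p = 0.11 to 0.14), all but the one without replicate 1 at 6 h.

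Among the cytokines, IL6 and LIF were the better counted. IL6 had 3.83, 6.10 and 7.08 CPM with asparagine and vehicle at 6 h, and all 24 h libraries lay between 0.387 and 1.56 CPM, below every 6 h library. Its log2 changes were -2.36 ± 0.34 and -2.85 ± 0.37 with asparagine (vehicle, ISRIB) and -3.45 ± 0.36 and -3.42 ± 0.33 without. An antisense gene, AC073072.1, covers 20.7% of the exon bases of IL6, and the sources used here do not give the strand setting of the counting, so its reads cannot be told apart there. For LIF the antisense genes AC004264.1 and LIF-AS1 cover 4.41% and 2.32%. LIF kept the largest remainder at 24 h, 24.1 to 43.9 CPM against 80.6 to 238 CPM at 6 h, with log2 changes of -1.89 ± 0.26, -1.87 ± 0.26, -2.21 ± 0.26 and -2.36 ± 0.26 in the order used above. IL1B, the secreted interleukin 1, went from 1.39 to 6.55 CPM at 6 h to 0.112 to 0.646 CPM at 24 h, and its log2 change ran from -2.48 ± 0.53 with asparagine and ISRIB to -4.20 ± 0.57 without asparagine and with ISRIB. IL1A, which acts as an alarmin in epithelia, had 0.641 to 3.73 CPM at 6 h and 0.0904 to 0.452 CPM at 24 h. Its log2 changes were -1.65 ± 0.47 and -1.99 ± 0.52 with asparagine (vehicle, ISRIB) and -3.44 ± 0.43 and -2.52 ± 0.48 without. With asparagine the calls of IL1A were lost without replicate 1 at 6 h (-1.53, adjusted p = 0.056) or replicate 3 at 24 h (-1.33, 0.090) of the vehicle groups, and without replicate 3 at 6 h (-1.69, 0.064) of the ISRIB groups.

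PTGS2 fell with the smallest relative error of the 9. With asparagine and vehicle it had 89.9, 107 and 158 CPM at 6 h and 8.23, 10.3 and 6.44 CPM at 24 h. Without asparagine and with vehicle it had 125, 175 and 204 CPM against 14.9, 10.8 and 9.38 CPM. Its log2 change was -3.83 ± 0.33 and -4.03 ± 0.33 with asparagine (vehicle, ISRIB) and -3.84 ± 0.32 and -4.41 ± 0.33 without, with adjusted p from 2.7e-07 to 6.2e-09. No 24 h library of PTGS2 came near the 6 h range, whose lowest value was 89.9 CPM against a highest of 16 CPM.

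**Figure D2:**
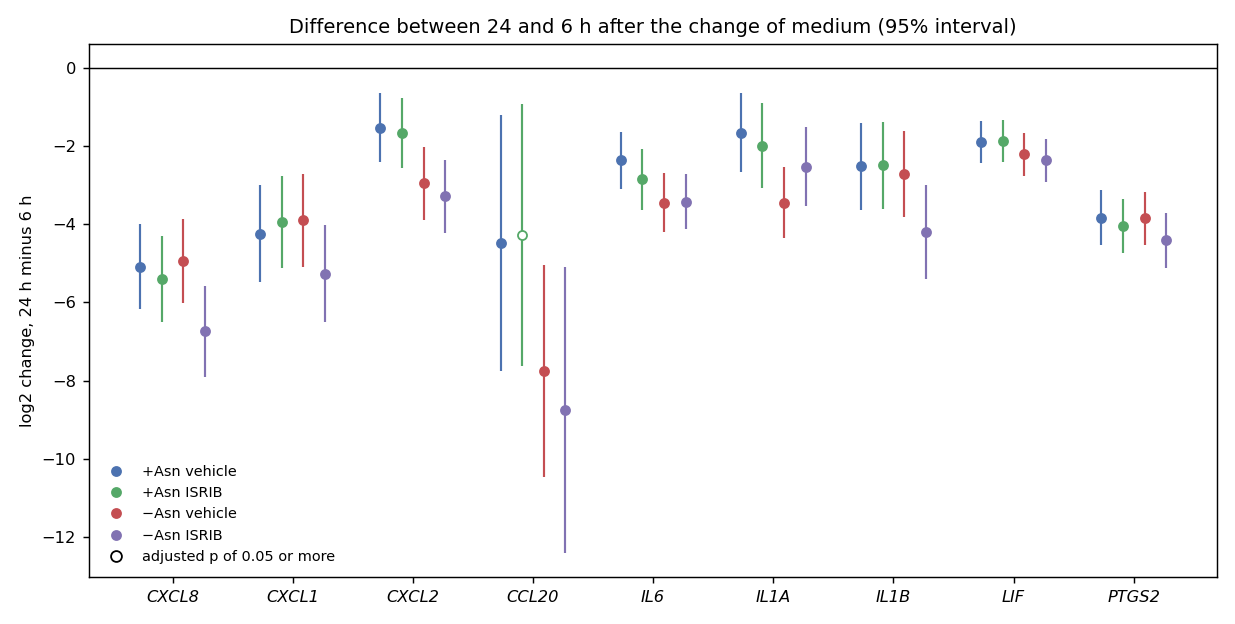
Log2 change from 6 to 24 h (vertical axis) of the 9 tested genes in the 4 combinations of medium and drug; points are estimates, bars 95% confidence intervals, and the open point is the comparison with an adjusted p of 0.05 or more. All 36 estimates lie below 0, from -1.52 for CXCL2 with asparagine and vehicle to -8.75 for CCL20 without asparagine and with ISRIB, where the later libraries held 0 counts.

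The median log2 change of the 9 genes was -2.51, -2.85, -3.45 and -4.20 in the same order of comparisons, while the median of all genes was 0 to 0.01. CXCL2, CCL20 and IL1A are among the 9 and passed the count filter through the 6 h libraries alone. The medians therefore describe the genes, like the counts above, and are not evidence of a shared decline. These comparisons share no libraries with one another. Whether the decline differed between conditions was tested as the difference between times of the withdrawal and ISRIB responses, in 3 comparisons, and 0 of 9 genes were called in each, where 1.22%, 2.67% and 7.59% of genes were. The difference closest to the threshold was that of CXCL8 for ISRIB against vehicle without asparagine, -1.81 ± 0.65 with an adjusted p of 0.090. With DESeq2 it passed (-1.82 ± 0.66, adjusted p = 0.048). It was -1.01 ± 0.51 (adjusted p = 0.22) without the 3 libraries named above for their GC slope.

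The mRNAs also share AU-rich 3′ UTRs, the feature through which such transcripts are known to be destabilised. In the longest coding transcript of each gene (GENCODE 29, GRCh38), the pentamer ATTTA occurred 14.0 times per kb of 3′ UTR in IL6, 13.9 in CXCL2, 10.4 in CXCL3, 9.84 in IL1B and 8.59 in PTGS2. The density was 7.19 in CXCL8, 7.08 in CXCL1, 6.24 in CCL20, 4.34 in IL1A and 2.18 in LIF. All 10 lay above the median of 1.73 per kb over 12097 tested genes, and LIF was nearest to that median. The longer element TTATTTATT was found in 7 of the 10 genes and in 9.74% of the 12097. The first match in the abundant transcripts CXCL8, PTGS2, CXCL1 and LIF is printed with the element in capitals and 10 bases on either side, all within the 3′ UTR.
CXCL8, chr4:73742664-73742692 (+): atgtaaagtaTTATTTATTtgaatctaca
PTGS2, chr1:186674317-186674345 (-): atgatcatatTTATTTATTtatatgaacc
CXCL1, chr4:73870674-73870702 (+): agtcttctatTTATTTATTtattcattag
LIF, chr22:30240958-30240986 (-): ctccgggcccTTATTTATTatttaaacat
In PTGS2 the match began 18 bases into the 3′ UTR, and in LIF 2675 bases into it. IL6, CCL20 and IL1A held the pentamer and not the longer element.

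Withdrawal of asparagine for 6 h with vehicle was followed by higher IL1A and CCL20, and the 7 other tested genes did not pass the test. These were 2 of 9 called, both higher, where 4.57% of genes were called and 3.31% were called higher. IL1A had 1.21, 0.886 and 1.05 CPM with asparagine and 2.13, 3.71 and 3.73 CPM without, and the groups did not overlap. It rose by 1.60 ± 0.35 on the log2 scale (3.04-fold, adjusted p = 0.0070) and was called in all 6 fits that left out a library. CCL20 had 0.202, 1.15 and 1.15 CPM with asparagine and 1.87, 5.00 and 7.45 CPM without, also without overlap. It rose by 2.52 ± 0.70 (5.73-fold, adjusted p = 0.043). This call was lost with DESeq2 (adjusted p = 0.19) and without any 1 of 5 libraries (log2 change 2.05 to 2.83, adjusted p = 0.090 to 0.22), replicates 1, 2 and 3 with asparagine and replicates 2 and 3 without. The share of all genes without overlap is not given here, so gaps between groups, here and below, only describe the libraries.

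Of the abundant members, CXCL8 showed values close to those with asparagine. PTGS2 and LIF were higher in each same-numbered pair but were not called. CXCL8 had 233, 517 and 494 CPM without asparagine and vehicle at 6 h, against 217, 491 and 498 CPM with it, a log2 change of 0.04 ± 0.42 with a 95% interval of -0.85 to 0.94. That interval leaves room for a sizeable change in either direction. CXCL1 changed by 0.10 ± 0.43, IL1B by 0.15 ± 0.41 and LIF by 0.23 ± 0.25, none called. PTGS2 at 0.50 ± 0.28, IL6 at 0.57 ± 0.28 and CXCL2 at 0.60 ± 0.34 were higher in each of the 3 pairs of libraries with the same replicate number but were not called (adjusted p = 0.34 to 0.43). Libraries with the same number deviated together in this comparison. With the number as a block within each time, IL6 was called as well (0.58 ± 0.16, adjusted p = 0.043), and with the block in the 2 groups alone 6 genes were called higher, namely CCL20, IL1A, CXCL2 (0.58 ± 0.22), IL6 (0.56 ± 0.11), PTGS2 (0.50 ± 0.05) and LIF (0.22 ± 0.04). Both of these fits were chosen after seeing the data. The block in the 2 groups alone called 6036 genes in all, against 795 in the main fit. Its 6 calls thus stand beside a far larger share of all genes. For the block within each time that share is not given here, so its added call of IL6 cannot be read as a result about the members.

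With ISRIB, withdrawal for 6 h was followed by higher IL6, the 1 of 9 called, where 2.30% of genes were called and 1.63% called higher. IL6 had 3.79, 4.36 and 6.59 CPM with asparagine and 8.60, 13.5 and 16.3 CPM without. The groups did not overlap, and IL6 rose by 1.38 ± 0.28 (2.61-fold, adjusted p = 0.0088). The call was lost when the 2 groups were fitted alone (adjusted p = 0.23), without the 3 libraries named for their GC slope (1.02, adjusted p = 0.10), and without replicate 1 (1.23, 0.051) or 2 (1.30, 0.064) with asparagine or replicate 3 without (1.18, 0.053). PTGS2 at 0.94 ± 0.28 (adjusted p = 0.096), LIF at 0.68 ± 0.25 (0.19) and CXCL2 at 0.90 ± 0.34 (0.21) had groups that did not overlap but were not called. As the share of all genes without overlap is not given here, these gaps do not stand in for a call. CXCL8 at 0.81 ± 0.42 (0.45), CXCL1 at 0.88 ± 0.43 (0.40), CCL20 at 1.95 ± 0.76 (0.25), IL1B at 0.78 ± 0.40 (0.45) and IL1A at 0.73 ± 0.39 (0.47) overlapped between media.

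A single library carried much of these values. Replicate 3 without asparagine and with ISRIB at 6 h held the highest level among the 12 libraries of its time for CXCL8 (1360 CPM against at most 568 in the others), CXCL1 (49.7 against at most 23.3), CXCL2, IL6, IL1B and PTGS2 (365 against at most 204). It was also the library with a GC slope of -0.36. The genes highest in it ranged in GC content from 33.4% for CXCL8 and 36.9% for PTGS2 to 45.6% for CXCL1, 45.7% for IL1B and 46.0% for CXCL2. CCL20, at 35.5%, reached 7.45 CPM without asparagine and with vehicle, against 6.22 CPM in this library. It still lay further above its own group mean here than the other tested genes (1.95 on the log2 scale, CXCL8 1.18). What set this library apart was not tested. Without it, the change on withdrawal with ISRIB was 0.00 ± 0.37 for CXCL8, 0.14 ± 0.39 for CXCL1, 0.51 ± 0.75 for CCL20, 0.52 ± 0.26 for PTGS2 and 1.18 ± 0.30 for IL6 (adjusted p = 0.053). LIF, at 56.9% GC, stood at 0.70 ± 0.27. With a correction for GC content CXCL8 stood at 0.51 ± 0.39, and IL6 (1.34 ± 0.26) and LIF (0.78 ± 0.21) were called.

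Whether ISRIB altered the response to withdrawal was tested as the interaction of medium and drug. At 6 h 0 of 9 genes were called, where 0.718% of genes were. The estimates were positive for 7 genes, with IL6 at 0.81 ± 0.40 (adjusted p = 0.94), and negative for IL1A at -0.88 ± 0.53 and CCL20 at -0.57 ± 1.07 (adjusted p = 1.0). Without replicate 3 of the group without asparagine and with ISRIB the estimates were -0.04 ± 0.50 for CXCL8, 0.04 ± 0.53 for CXCL1, 0.05 ± 0.49 for CXCL2, 0.06 ± 0.53 for IL1B and 0.01 ± 0.35 for PTGS2. CCL20 then stood at -2.01 ± 0.94 and IL1A at -1.36 ± 0.51 (adjusted p = 0.58 and 0.41), IL6 at 0.61 ± 0.40 and LIF at 0.47 ± 0.37, so the positive estimates of 5 genes rested on that library. IL1A and CCL20, called with vehicle and not with ISRIB, are therefore not shown to differ in response. The same test called ASNS, whose withdrawal response was lower with ISRIB by 2.56 ± 0.14 on the log2 scale.

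**Figure D3:**
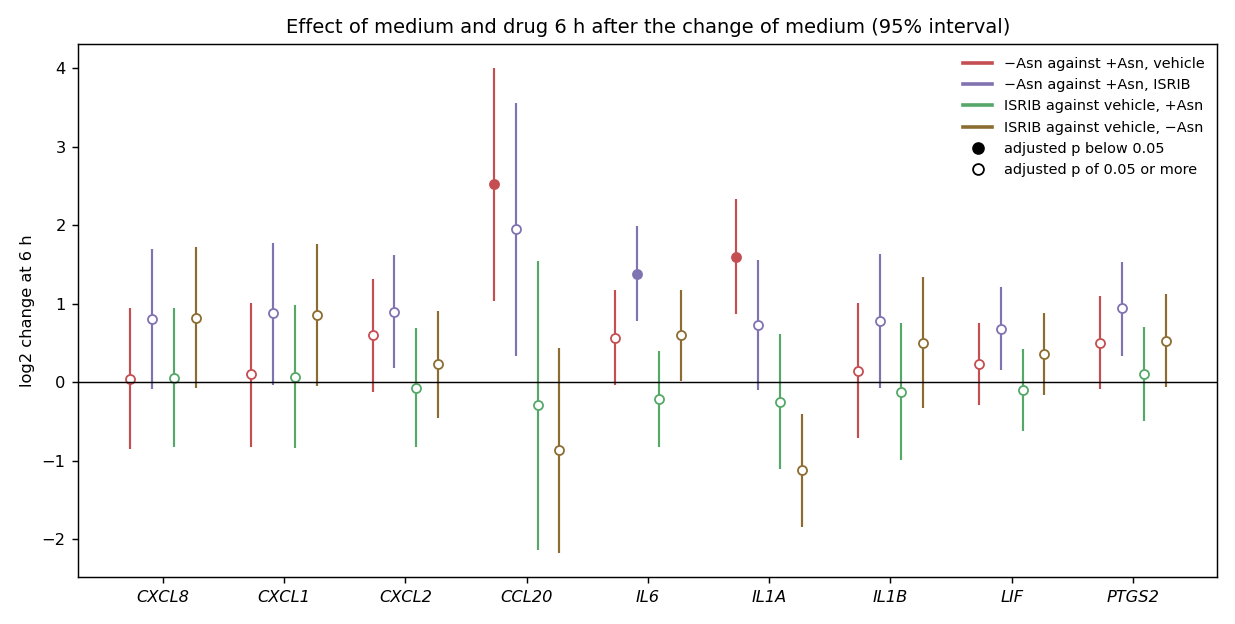
Log2 changes at 6 h (vertical axis) of the 9 tested genes for withdrawal of asparagine with vehicle or ISRIB and for ISRIB against vehicle with or without asparagine; bars are 95% confidence intervals and filled points have an adjusted p below 0.05. The filled points are CCL20 (2.52) and IL1A (1.60) for withdrawal with vehicle and IL6 (1.38) for withdrawal with ISRIB.

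ISRIB in medium with asparagine was compared with vehicle in the same medium. At 6 h 0 of 9 were called, and the same test called 0% of all genes, although 203 genes had an unadjusted p below 0.05. DESeq2 and limma also called 0 genes. The log2 changes of the 9 ran from -0.29 ± 0.87 for CCL20 to 0.10 ± 0.28 for PTGS2. CXCL8, at 247, 443 and 568 CPM with ISRIB and 217, 491 and 498 CPM with vehicle, changed by 0.06 ± 0.42. At 24 h 0 of 9 were again called, with 0% of all genes by edgeR, DESeq2 or limma and 248 genes with an unadjusted p below 0.05. IL6 was the gene whose groups did not overlap there, with 0.673 ± 0.156 CPM under ISRIB against 1.1 ± 0.299 CPM (SD, n = 3), and it differed by -0.71 ± 0.44 on the log2 scale. The share of all genes without overlap is not given here. A call that was missed does not show equal levels, and the interval of CCL20 at 6 h ran from -2.13 to 1.55.

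In medium without asparagine at 6 h ISRIB was set against vehicle in the same medium. The test called 0 of 9, where 2.19% of genes were called. IL1A was lower with ISRIB in each replicate number, 0.902, 1.19 and 2.40 CPM against 2.13, 3.71 and 3.73 CPM. It differed by -1.12 ± 0.34 (adjusted p = 0.10) and was called with the correction for GC content (-1.21 ± 0.30, adjusted p = 0.015) and without replicate 3 of the ISRIB group (-1.61 ± 0.36, adjusted p = 0.014). CCL20, at 0.371, 1.57 and 6.22 CPM against 1.87, 5.00 and 7.45 CPM, differed by -0.86 ± 0.61 (adjusted p = 0.73), or by -2.30 ± 0.62 (0.066) without that library. CXCL8 at 0.82 ± 0.42, CXCL1 at 0.86 ± 0.43, IL6 at 0.60 ± 0.27, PTGS2 at 0.53 ± 0.28, IL1B at 0.50 ± 0.39, LIF at 0.36 ± 0.25 and CXCL2 at 0.23 ± 0.32 were all not called (adjusted p from 0.43 to 0.90). Without replicate 3 of the ISRIB group CXCL8 differed by 0.02 ± 0.37, CXCL1 by 0.11 ± 0.39, IL6 by 0.39 ± 0.29, PTGS2 by 0.12 ± 0.26, IL1B by -0.06 ± 0.39 and CXCL2 by -0.02 ± 0.35. Libraries with the same number deviated together here too. The block within each time called IL1A lower (-1.14 ± 0.29) and CXCL1 (0.77 ± 0.16) and IL6 (0.59 ± 0.16) higher. The block in the 2 groups alone called IL1A lower (-1.13 ± 0.23) and CXCL1 (0.77 ± 0.13), IL6 (0.59 ± 0.12), PTGS2 (0.48 ± 0.12) and LIF (0.37 ± 0.08) higher. Over all genes that fit called 586, against 381 in the main fit. Both blocks were chosen after seeing the data. For the block within each time the share of all genes called is not given here, so its calls cannot be read as a result about the members.

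At 24 h neither the medium nor the drug moved any of the 9 tested genes past the threshold in the main fit. Withdrawal called 0 of 9 with vehicle, where 0.00574% of genes (1 gene) were called and 1271 had an unadjusted p below 0.05. With ISRIB it also called 0 of 9, although 22.1% of all genes were called. CXCL8 (-0.53 ± 0.50) and CXCL1 (-0.44 ± 0.75) were lower without overlap, and the share of all genes without overlap is not given here. LIF, the best counted at this time, had 33.9, 43.4 and 31.3 CPM with asparagine and vehicle and 38.2, 37.1 and 26.4 CPM without, a log2 change of -0.09 ± 0.25 (95% interval -0.63 to 0.44). ISRIB against vehicle without asparagine called 0 of 9, against 21.7% of all genes. CXCL8 had 5.99, 8.63 and 5.91 CPM with ISRIB there and 19.0, 11.1 and 10.5 CPM with vehicle, which did not overlap, and differed by -0.98 ± 0.49 (adjusted p = 0.16). It was called when the 2 groups were fitted alone (adjusted p = 0.0047), without the count filter (3.5e-11) and with the replicate block within each time (0.014). In the 6 fits that left out a library it was not called (adjusted p = 0.14 to 0.45). The share of all genes called in the fits that called CXCL8 is not given here, so those calls cannot be read as a result about it. The fit without the filter also gave CXCL8 a far smaller SE at 6 h, for a reason that was not tested. The block was chosen after seeing the data. The interaction at 24 h called 0 of 9, where 9.06% of genes were called, with IL6 at 1.33 ± 0.61 (adjusted p = 0.16). With the block in the 2 groups alone, a fit that called 2820 genes in all, PTGS2 was called higher on withdrawal with vehicle at 24 h (0.48 ± 0.13). For CCL20 the interval on withdrawal with vehicle ran from -7.59 to 6.05, and no difference was detectable at this depth. Its counts over the group summed to 2 with asparagine and 1 without.

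The spread within groups had a common form at 6 h. Replicate 1 was the lowest of its group for 9, 9, 9 and 10 of the 10 genes in the 4 conditions, and 8 of the 10 genes were lowest in replicate 1 in all 4 conditions. Over all tested genes this held for 811, or 4.66%. For CXCL8 replicate 1 read 217 to 289 CPM and the other 8 libraries 443 to 1360 CPM. The 2 exceptions were IL1A, lowest in replicate 1 in 2 of the conditions, and CXCL3, in 3. The SD of log2 CPM within the 4 conditions at 6 h was 0.62 to 1.12 for CXCL8, 0.29 to 0.58 for PTGS2 and 0.25 to 0.50 for LIF. For CXCL8, CXCL1, IL1B and LIF the SD of both groups exceeded the difference between media with vehicle, and for IL6 and IL1A it did not. At 24 h replicate 3 was the lowest for 7, 5, 7 and 8 of the genes. The share over all genes is not given for these counts or for those of single conditions at 6 h. Median counts at 24 h were 7 for CXCL2 and IL1B, 5 for IL1A, 1.5 for CXCL3 and 0 for CCL20, where the lowest library can rest on counting error. The labels do not say whether a number stands for a passage or a day, and the part of such a factor was not tested.

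**Figure D4:**
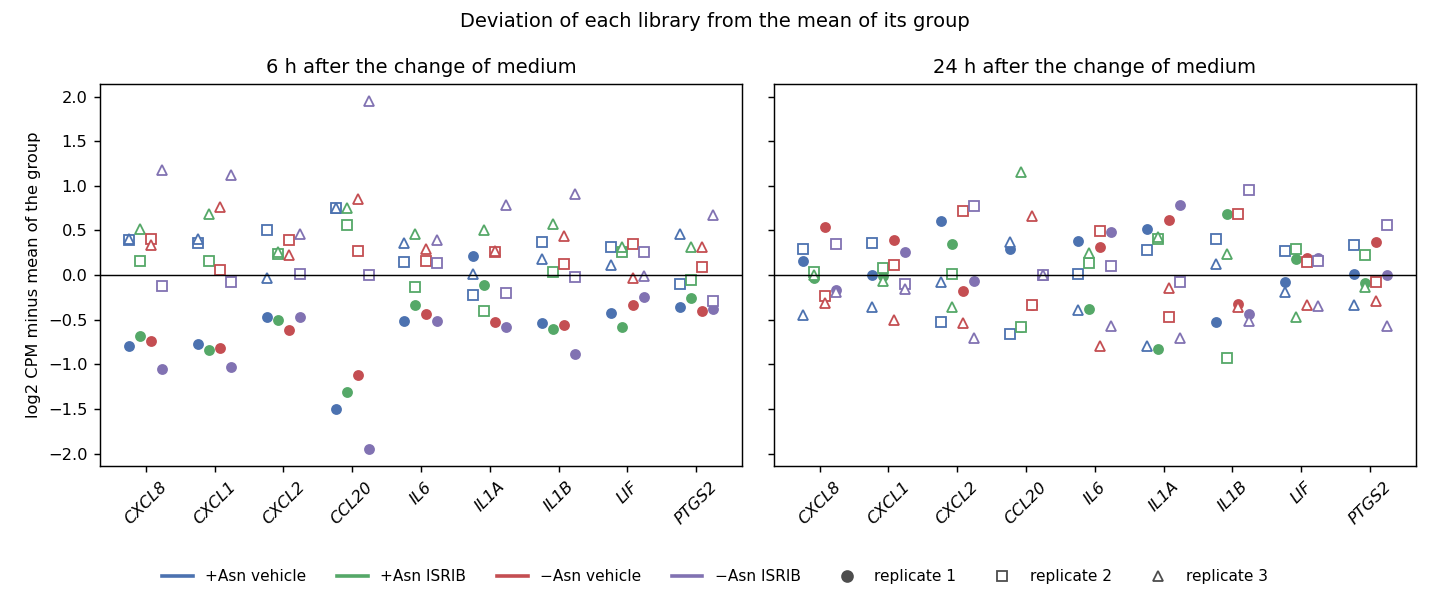
Log2 CPM of each library minus the mean of its group (vertical axis) for the 9 tested genes at 6 h (left) and 24 h (right); colours mark the 4 conditions and filled circles replicate 1. At 6 h replicate 1 lies below 0 for CXCL8 in all 4 conditions (-0.79 and -0.68 with asparagine and vehicle or ISRIB), and replicate 3 without asparagine and with ISRIB is the highest point for CXCL8.

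Genes with the nearest profile over the 24 libraries were looked up for each tested member among 14764 genes, as a description that rests mainly on the 2 times. CXCL8 was most like EDN1 (Pearson r = 0.993), the vasoactive peptide endothelin 1, SERPINB2 (0.993), a plasminogen activator inhibitor, and CXCL1 (0.991). PTGS2 was most like TGFA (0.996), an EGFR ligand, TNFAIP3 (0.994), the NF-κB feedback deubiquitinase A20, and ETS1 (0.993). LIF was most like SOCS3 (0.993), the STAT3-induced inhibitor of gp130 signalling, MAFF (0.989) and TUFT1 (0.988). IL6 followed ETS1 (0.974), CCL20 RAB11FIP1 (0.976), IL1A CD55 (0.948), IL1B PANX1 (0.963) and CXCL2 TGFB2 (0.947). Among the members themselves, CXCL8 and CXCL1 also moved together within groups (r = 0.92 over deviations from group means, 0.99 over all libraries), while IL1A and IL1B, at 0.81 over all libraries, had 0.03 within groups.

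The lists below were, like the 10 genes, drawn up with earlier results of these data known. Genes of the NF-κB system fell with time alongside the 10. Of 20 factors, inhibitors and classical targets tested, 14 fell and 0 rose with asparagine and vehicle (9.47% of all genes lower), with a median of -0.98 against 0 over all genes. The counts were 15 with asparagine and ISRIB (8.62%), 20 without asparagine and vehicle (13.2%), and 16 without asparagine and with ISRIB (17.8%), again with 0 higher. With asparagine and vehicle NFKB2, the p100 precursor, fell by 1.93 ± 0.16, TNFAIP3 by 3.57 ± 0.35, TNIP1, a partner of A20, by 1.44 ± 0.15 and NFKBIA, the inhibitor IκBα, by 1.51 ± 0.16. CEBPB (0.07 ± 0.22) and SOD2 (-0.60 ± 0.23) were not called. On withdrawal at 6 h 0 of the 20 were called with vehicle (4.57% of all genes), and with ISRIB 2 were (2.30%), TRAF1 (1.11 ± 0.23) and IRF1 (0.71 ± 0.15), both higher.

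Of the cytokines outside the 10 genes, 16 were tested, and with asparagine and vehicle 9 fell and 2 rose with time, where 18.8% of all genes were called and 9.47% were lower. IL11, a gp130 cytokine, fell by 2.01 ± 0.21, the EGFR ligands AREG and HBEGF by 2.67 ± 0.33 and 2.75 ± 0.35, and CLCF1, another gp130 cytokine, by 1.99 ± 0.26. CSF1 (-0.16 ± 0.14) and TNFSF15 (-0.20 ± 0.20) were not called. On withdrawal with vehicle at 6 h TNFSF15, a TNF-family ligand, rose from 5.36 ± 0.676 to 24.0 ± 0.621 CPM (SD, n = 3), by 2.16 ± 0.19 on the log2 scale. With ISRIB it stood at 5.42 ± 0.955 and 5.53 ± 1.42 CPM. HBEGF (1.45 ± 0.32) and AREG (1.35 ± 0.31) rose as well and CSF1 fell by 0.60 ± 0.15, so 3 of 16 rose and 1 fell, against 3.31% of all genes higher and 4.57% called. CLCF1 (0.24 ± 0.25) and IL11 (0.35 ± 0.20) were not called there, and with ISRIB IL11 rose by 1.04 ± 0.20. Of 26 other chemokines 21 were in the table and 4 reached the test. With asparagine and vehicle the transmembrane chemokine CXCL16 fell with time by 0.59 ± 0.15 and CCL28 rose by 0.40 ± 0.13, while CCL22 (-0.51 ± 0.39) and CCL26 (-0.78 ± 0.48) were not called.

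Receptors for these ligands were unevenly present. CXCR1 and CXCR2, the receptors of CXCL8, averaged 0.0353 and 0.0435 CPM and did not reach the test. Of CXCR2, 18 counts lay in the 3 libraries without asparagine and with vehicle at 6 h (0.16 to 0.408 CPM), and every other group held 0 or 1. The gp130 gene IL6ST averaged 264 CPM, OSMR 204 CPM and LIFR 45.6 CPM. With time in asparagine and vehicle 4 of the 10 tested fell and 1 rose, against 18.8% of all genes called and 9.47% lower. IL1RL1, the IL33 receptor, fell by 1.27 ± 0.17, OSMR by 0.67 ± 0.15 and IL1RAP, the shared interleukin 1 coreceptor, by 0.76 ± 0.18, while IL1R1 rose by 0.66 ± 0.11. IL6ST (-0.27 ± 0.20) and LIFR (0.34 ± 0.13) were not called. Withdrawal with vehicle at 6 h raised IL1RL1 by 1.30 ± 0.16 and OSMR by 0.60 ± 0.15, and with ISRIB IL1RL1 rose by 0.62 ± 0.16 and IL6R by 0.60 ± 0.16.

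The enzymes around PTGS2, the genes linked to STAT3 and the regulators of AU-rich mRNA were counted in the same way, against 18.8% of all genes called. Of 8 prostanoid enzymes and transporters tested with asparagine and vehicle, the prostaglandin transporter SLCO2A1 fell by 1.05 ± 0.27, the synthase PTGES by 0.47 ± 0.16 (adjusted p = 0.050, just below the threshold), and PTGR1 rose by 0.24 ± 0.08. PTGES3 (0.23 ± 0.15) and PTGES2 (-0.22 ± 0.19) were not called. Of 8 STAT3-linked genes 5 fell (9.47% of all genes lower) and 1 rose, with SOCS3 at -2.04 ± 0.24, STAT3 at -0.41 ± 0.07, MYC at -0.71 ± 0.14 and BCL6 at 1.22 ± 0.21. PIM1 (-0.50 ± 0.24) and SOCS1 (-0.73 ± 0.32) were not called, and PIM1 rose on withdrawal with vehicle at 6 h (1.11 ± 0.24). Among 11 regulators of AU-rich mRNA 4 fell and 1 rose with time, against the same shares. ZFP36L1 fell by 1.09 ± 0.15, ZFP36L2 by 0.56 ± 0.12, ZFP36 by 0.75 ± 0.19 and ZC3H12A, the endonuclease regnase-1, by 0.96 ± 0.25, and HNRNPD (-0.19 ± 0.10) and CNOT1 (0.07 ± 0.11) were not called.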

How the data were processed

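RNA-seq libraries of PC9 cells formed 8 groups of 3, taken from the titles. The deposited table of counts holds reads per gene. Per the submitters' processing notes the authors' tools were Bowtie2, featureCounts and DESeq2 and the build was hg38, while tool versions, roles and the strand setting are not given in the sources used here. Another deposited table holds log2 values that look like the variance-stabilizing transformation of DESeq2 (3.45 at 0 counts, up to 18.6) and served as an alternative.

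Counts were scaled with TMM (0.902 to 1.08), filtered with filterByExpr (minimum count 10) and fitted in edgeR 4.0.16 (R 4.3.3) with 1 mean per group over 24 libraries and 16 residual degrees of freedom. Each contrast used the quasi-likelihood F test with Benjamini-Hochberg adjustment over 17409 genes, at 0.05. CPM use TMM-scaled totals. Positions, lengths and GC are from GENCODE 29, which held 36620 of 37411 identifiers. Replicates are biological per the series' text, and p-values measure the spread between these libraries, whatever its source. The fit was tested on simulated data.

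The 10 genes and all lists were chosen with earlier results of these data known. From the other lists the text names, in a comparison it describes, up to 4 called genes of smallest adjusted p and up to 2 uncalled ones of highest CPM, and for each tested member the 3 genes of highest Pearson correlation or the first of them. Alternatives were DESeq2 1.42.0, RLE scaling, no filter, the groups alone, a replicate block, limma 3.58.1 on the deposited log2 values, a GC correction (robust spline, 5 degrees of freedom, 99.5% of genes) with and without the block, omission of the 3 libraries with the steepest GC slopes below 0, and each library left out. Blocks within each time, or in the groups alone, were chosen after seeing the data. To see whether replicate numbers pair libraries, deviations of same-numbered libraries from their group means were correlated. All 3 pairs exceeded 0.1 in 3 of 12 comparisons of 2 groups: vehicle withdrawal at 6 h (0.284 to 0.311), vehicle withdrawal at 24 h (0.185 to 0.330), and the drug in asparagine-free medium at 6 h (0.306 to 0.440). This pairing rests on the data alone.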

Additional observations from a re-analysis of the deposited data

How the results depend on the processing

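All 38 calls of a member in a comparison kept their direction under each alternative that could be computed (DESeq2, RLE scaling, no filter, groups alone, blocks, limma, GC settings, libraries left out), and 613 of their values stayed past the threshold while 29 fell short. The number of the 9 tested genes called was 2 for withdrawal with vehicle at 6 h and became 1 with DESeq2, 6 with the replicate block in the groups alone, and 1 to 2 with a library left out. For withdrawal with ISRIB at 6 h it was 1 and became 2 with DESeq2, the replicate block or the GC correction, 4 with GC correction and replicate block, 6 without the count filter or with the replicate block within each time, 0 with the groups alone (with or without replicate block) or without the 3 libraries singled out by GC slope, and 0 to 2 with a library left out. For ISRIB without asparagine at 6 h it was 0 and became 1 with the GC correction, 2 with GC correction and replicate block or without those 3 libraries, 3 with the replicate block within each time, 5 without the filter or with the replicate block in the groups alone, and 0 to 1 with a library left out. At 24 h the count of 0 became 1 for ISRIB without asparagine in the groups alone, without the filter and with either replicate block chosen after seeing the data, 2 for withdrawal with ISRIB without the filter or with the replicate block within each time, and 1 for withdrawal with vehicle with the replicate block in the groups alone. The count of 0 became 1 for the interaction at 6 h without the filter, and at 24 h 2 without the filter and 1 with the replicate block within each time. For the time difference of ISRIB without asparagine it became 1 with DESeq2, 3 without the filter, 2 with the replicate block within each time and 0 to 1 with a library left out, and for that of withdrawal with ISRIB 2 without the filter. The 8 calls with time for asparagine and ISRIB became 4 with the replicate block in the groups alone. With a library left out the calls with time were 6 to 8, 7 to 9, 9 and 9. Without the filter the SE of CXCL8 at 6 h was 0.11 in place of 0.42, and the cause of these shifts was not tested. The share of all genes called without the filter or with the replicate block within each time is not given here. Member counts from those fits therefore cannot be read as a result about the members. Over all genes, the GC correction (with the replicate block in brackets) raised the counts from 795 to 1798 (2191) for withdrawal with vehicle at 6 h, from 400 to 1416 (1791) with ISRIB, from 381 to 1060 (1406) for ISRIB without asparagine at 6 h and from 3275 to 5594 (6098) for time with asparagine and vehicle. Fitting the groups alone gave 1429, 0, 141 and, for time with asparagine and ISRIB, 967 against 3024, and the replicate block in the groups alone gave 6036, 0, 586 and 48. Withdrawal with vehicle at 24 h called 1 gene and 2820 with that block, and withdrawal with ISRIB at 24 h 3855 and 420. Without the 3 libraries withdrawal with vehicle at 6 h called 1924, ISRIB without asparagine 632 at 6 h and 6456 in place of 3778 at 24 h, and the interaction at 24 h rose from 1577 to 2374 with DESeq2. The planned replicate block over all libraries added CCL20 to the calls for withdrawal with ISRIB at 6 h and for time with asparagine and ISRIB (9 of 9) and changed no other call of a member. At 24 h CXCL2, IL1B, IL1A, CXCL3 and CCL20, with median counts of 7, 7, 5, 1.5 and 0 per library, are limited by depth.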
